A study of Mus musculus with 28 samples.

Results

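The measurement described here is the DFMO by JMJD3 genotype interaction in Th17n cells, that is, the effect of DFMO in JMJD3-deficient cells minus its effect in wild-type cells, gene by gene. It compares 14 of the 28 RNA-seq libraries of the series. All 28 entered the fit and its filter on low counts, and 10985 of the 20891 genes in the deposited tables had enough counts to be tested. The cells were spleen CD4 T cells of C57BL/6 mice. KO stands for 3 mice in which floxed JMJD3 alleles (gene symbol Kdm6b) were deleted by CD4cre, a Cre recombinase driven by the Cd4 promoter and so active in the T cell lineage. WT stands for 4 mice labelled WT, which the series' design text calls controls; whether they carried Cre or floxed alleles is not given in the sources used here. Naive cells of both genotypes, CD44- and CD25- among other criteria, were sorted and activated on plates coated with anti-CD3 (1 µg/ml) together with anti-CD28 antibody (1 µg/ml). A mix of 25 ng/ml IL-6 with 2 ng/ml TGF-beta 1 turned them into non-pathogenic Th17 (Th17n) cells. Cultures were kept with 100 µM DFMO or without it (ctrl) and were harvested at 68 h, which gave 3 KO DFMO, 3 KO ctrl, 4 WT DFMO and 4 WT ctrl libraries. Libraries of a genotype with the same number in their labels were read as cultures of 1 animal. The series asks whether JMJD3 mediates what polyamines do in Th17 cells, and this contrast asks it for each gene: a value of 0 means that DFMO did the same in both genotypes.

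DFMO (difluoromethylornithine) inhibits ornithine decarboxylase, encoded by Odc1, the first committed enzyme of the synthesis of putrescine, spermidine and spermine. Polyamines bind nucleic acids and are needed for translation and for lymphocyte growth. JMJD3 removes methyl groups from lysine 27 of histone H3, a mark laid down by Polycomb complexes at silent genes. Th17 cells are defined by the cytokines IL-17A and IL-17F, while iTreg cells, grown from the same animals with TGF-beta 1 and without IL-6, are defined by Foxp3.

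Total estimated counts were 3957830 to 4732039 in KO DFMO, 2226914 to 4143568 in KO ctrl, 3590879 to 4496220 in WT DFMO and 4561014 to 4759290 in WT ctrl libraries, so that KO ctrl held the shallowest library. All 9 CD4 T cell markers were tested and summed to 3302 to 4382 CPM (counts scaled to library size) per library. Among the iTreg libraries used for comparison, DFMO WT replicate 4 stood apart from its group in the genes described below. Th17 markers Il17a, Il17f, Il23r and Ccr6 summed to 346.1 to 1663 CPM per library. Fewer cells of a type and less RNA per cell cannot be told apart in these bulk samples. Kdm6b itself stood at 24.3, 26.7 and 33.0 CPM in KO DFMO, 30.3, 28.6 and 43.4 in KO ctrl, 36.05, 55.0, 64.0 and 62.7 in WT DFMO and 33.5, 43.1, 51.1 and 60.6 in WT ctrl. In CPM, KO DFMO libraries were all below WT DFMO libraries, whereas KO ctrl and WT ctrl libraries overlapped. In the deposited TPM (counts scaled to transcript length and library size) the DFMO libraries of the genotypes overlapped as well. Kdm6b TPM were 6.53, 5.87 and 6.48 in KO DFMO and 5.41, 8.86, 9.51 and 9.28 in WT DFMO. Exons of Kdm6b that Cre leaves in place still count towards these values, and Kdm6b overlaps the antisense gene Kdm6bos, so these values check the genotype only in part.

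DFMO changed a large share of all genes in either genotype, and for few of them was the change called different between the genotypes. By edgeR's quasi-likelihood test with Benjamini-Hochberg adjustment over all genes, 36 genes passed an adjusted p of 0.05, which is 0.328% of those tested. The effect of DFMO was higher in KO than in WT for 4 genes (0.0364%) and lower in KO for 32 (0.291%), with adjusted p-values of 0.000607 to 0.0476. Without adjustment 753 genes had a p under 0.05 (6.85%), 332 higher (3.02%) and 421 lower (3.83%). With the animal, read from the labels' replicate numbers, as a block, 57 genes were called, 10 higher and 47 lower, among them all 36. A fit of Th17n libraries only called 129 of 10684 genes, and 252 with the block as well, so the count depends on the fit. A gene that was not called is not thereby shown to respond equally in both genotypes. The effect of DFMO passed the same threshold for 5013 genes in KO (45.6%) and 5690 genes in WT (51.8%). The median absolute log2 effect of DFMO was 0.47 in KO and 0.45 in WT, while the median absolute interaction was 0.19. For 7295 genes (66.4%) the 95% interval of the interaction lay within -1 and 1 on the log2 scale, and for 604 (5.5%) the estimate lay outside that range. DFMO was called in opposite directions in the genotypes for 7 genes, of which Plac8, Adipor1, Rala, Tmem214 and Sipa1 were also called in the interaction.

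**Figure D1:**
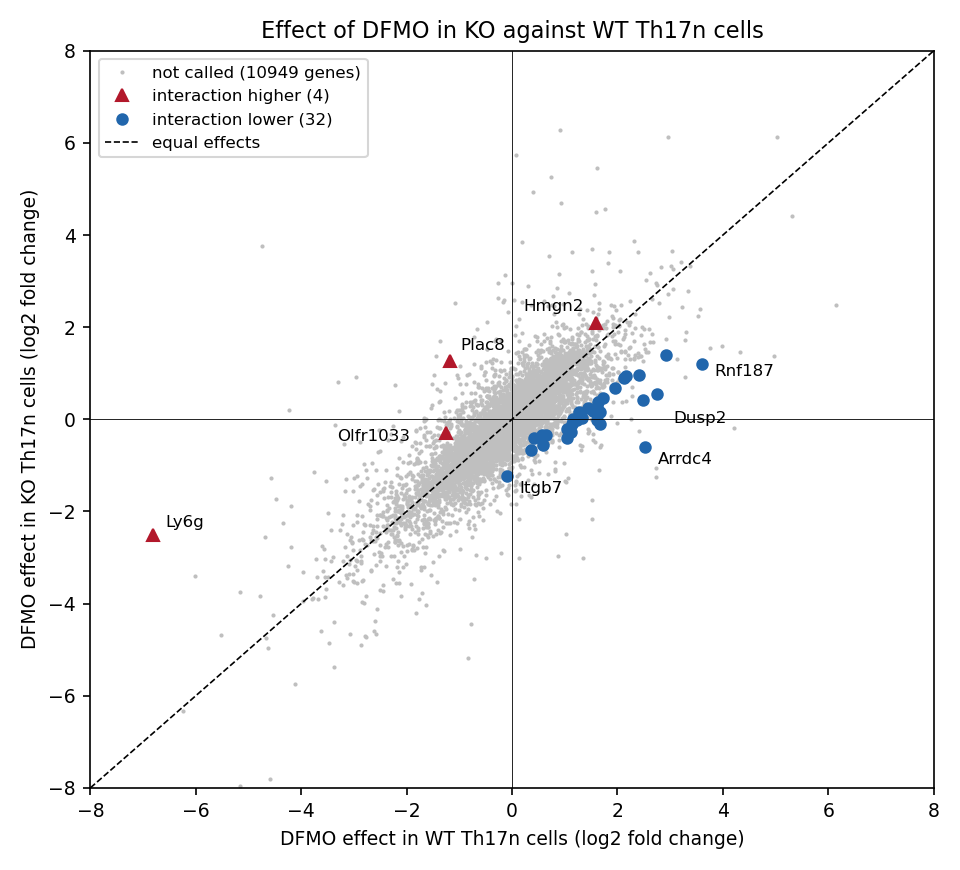
Log2 fold change of DFMO against ctrl in KO Th17n cells (vertical axis) against that in WT Th17n cells (horizontal axis), 1 point per tested gene. The dashed line marks equal effects. The 32 genes with a lower interaction (blue circles) lie to the right of and below the line, most of them near 0 on the KO axis, and the 4 genes with a higher interaction (red triangles) lie above it.

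Of the 32 genes with a lower interaction, 31 had 1 pattern in common, and Itgb7 did not. In the 31 every WT ctrl library lay below all 10 other Th17n libraries, a pattern seen in 290 of all tested genes (2.64%). KO ctrl stood level with the DFMO groups for some of these genes, and between them and WT ctrl or above them for others. DFMO raised 31 of the 32 in WT (background 23.4%), the exception being Itgb7, with a median log2 effect of 1.57, and lowered none (background 28.4%). In KO it raised 6 (background 21.1%), lowered 5 (background 24.6%) and was not called for 21, with a median of 0.07. KO was called above WT in ctrl libraries for 32 of 32 (background 2.29%) and was called different in DFMO libraries for 0 of 32 (background 1.02%). Animal by animal, the effect of DFMO was below every WT animal's in every KO animal for 32 of 32 (background 6.33%). These component contrasts share their libraries with the interaction and describe it without adding support. The median interaction of the 32 was -1.27 (range -3.13 to -0.81), against 0.017 over all tested genes. Called genes lay on 15 chromosomes, and chromosome 11, which holds Kdm6b, had 3 of the 36 (8.33%) and 8.32% of the tested genes.

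Averaged over the 32 genes and expressed as a log2 level relative to the mean of the 28 libraries, KO DFMO libraries stood at 0.44 to 0.54, KO ctrl at 0.31 to 0.46, WT DFMO at 0.54 to 0.61 and WT ctrl at -1.14 to -0.81. No WT ctrl library came near the others. In the iTreg libraries of the same animals, whose levels do not enter the Th17n estimates but do enter the shared spread behind the calls, the 32 genes stood at 0.53 to 0.55 in KO DFMO, 0.15 to 0.29 in KO ctrl, -0.23 to 0.61 in WT DFMO and -1.67 to -0.78 in WT ctrl. The low WT DFMO value was that of iTreg DFMO WT replicate 4, whose 3 companions stood at 0.46 to 0.61. The labels give no extraction, library or sequencing batch, so the genotype difference in ctrl cultures and any difference in how the WT ctrl libraries were made cannot be told apart.

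**Figure D2:**
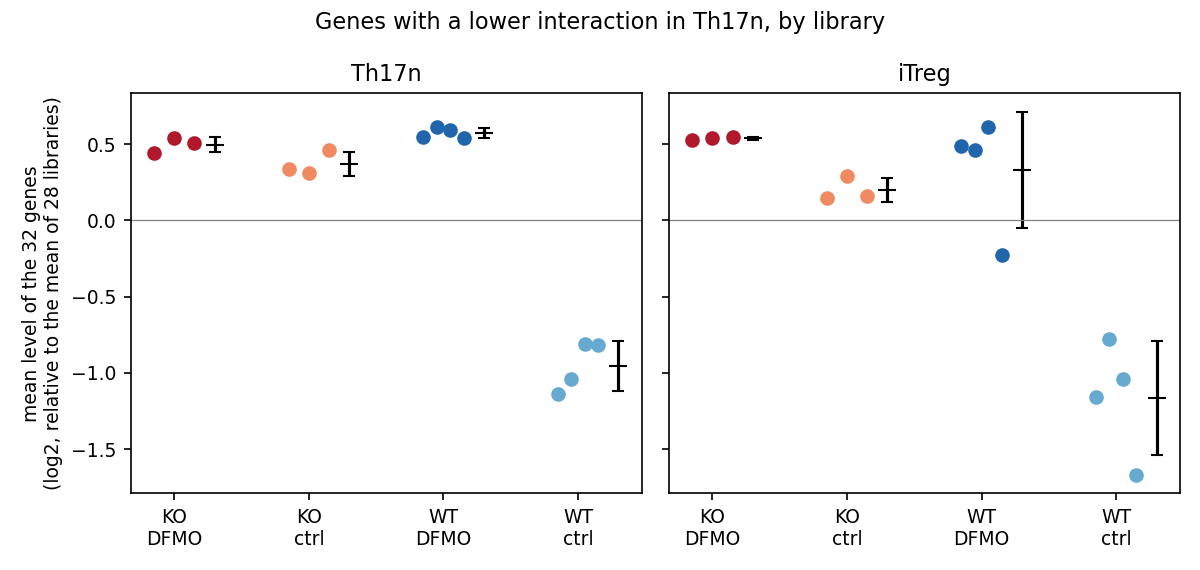
Mean log2 level of the 32 genes with a lower interaction, relative to the mean of 28 libraries, in Th17n (left) and iTreg (right). Points are libraries and black marks are mean ± SD. The WT ctrl libraries lie at -1.14 to -0.81 in Th17n and at -1.67 to -0.78 in iTreg, below all others, and iTreg DFMO WT replicate 4 lies at -0.23.

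Base composition of the transcripts was set beside these levels. The median GC content was 55.7% for the 32 genes and 50.7% for all tested genes, and that of the richest 100 bases was 78.8% and 69.0%. The deviation of the GC-richest 10% of genes from the GC-poorest 10%, as a median log2 level, was 0.00 to 0.06 in KO DFMO, 0.06 to 0.16 in KO ctrl, -0.02 to 0.18 in WT DFMO and -0.15 to 0.02 in WT ctrl. The range of WT ctrl overlaps those of WT DFMO and KO DFMO and lies below that of KO ctrl. In iTreg the deviation was -0.13 to 0.22 in KO DFMO and -0.17 to 0.29 in KO ctrl. It was -0.28 to 0.30 in WT DFMO and -0.37 to -0.07 in WT ctrl there. The WT ctrl median, -0.195, was the lowest of the iTreg groups. Base composition as a cause of the levels of the 32 genes was not tested. With a GC correction in each library, 33 genes were called, 29 of the 36 among them. The other 7 kept their direction at -1.17 for Tsen34, -1.08 for Itgb7, -0.78 for Tbc1d10a, -1.18 for Tesc, -0.996 for Sipa1, -1.13 for Sh2b3 and 0.82 for Olfr1033, with adjusted p-values of 0.0519 to 0.178. With the correction and the animal block 63 genes were called, 35 of the 36 among them. The 4 genes with a higher interaction had a median GC content of 47.6%.

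Promoter sequences are shown for 4 of the called genes, to set beside each other 2 genes that were low in WT ctrl (Rnf187 and Dusp2) and the 2 genes whose interaction was highest (Ly6g and Plac8). They run from 250 bases before to 50 after the RefSeq transcription start on the GRCm38.p6 build, 5′ to 3′ on the gene's strand, and capitals mark matches on either strand to the GC box GGGCGG (the reverse strand reads CCGCCC) or the E-box CACGTG.
Rnf187 (chr11:58938857-58939156, minus strand): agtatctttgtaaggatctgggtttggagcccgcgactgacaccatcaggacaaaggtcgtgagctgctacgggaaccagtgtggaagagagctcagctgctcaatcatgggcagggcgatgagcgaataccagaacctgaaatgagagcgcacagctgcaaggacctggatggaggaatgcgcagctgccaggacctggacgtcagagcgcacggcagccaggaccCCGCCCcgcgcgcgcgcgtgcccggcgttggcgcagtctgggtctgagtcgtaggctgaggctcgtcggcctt
Dusp2 (chr2:127335909-127336208, plus strand): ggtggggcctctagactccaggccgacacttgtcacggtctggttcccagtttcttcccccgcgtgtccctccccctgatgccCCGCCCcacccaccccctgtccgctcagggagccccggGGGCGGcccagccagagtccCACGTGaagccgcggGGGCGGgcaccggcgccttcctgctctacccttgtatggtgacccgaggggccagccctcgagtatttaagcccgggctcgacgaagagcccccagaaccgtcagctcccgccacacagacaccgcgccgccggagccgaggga
Ly6g (chr15:75155011-75155310, plus strand): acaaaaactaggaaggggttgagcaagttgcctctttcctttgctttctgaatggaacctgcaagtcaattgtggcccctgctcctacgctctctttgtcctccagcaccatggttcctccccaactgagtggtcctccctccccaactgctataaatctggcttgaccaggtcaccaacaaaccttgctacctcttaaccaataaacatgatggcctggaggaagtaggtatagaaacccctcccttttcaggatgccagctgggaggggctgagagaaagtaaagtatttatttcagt
Plac8 (chr5:100572156-100572455, minus strand): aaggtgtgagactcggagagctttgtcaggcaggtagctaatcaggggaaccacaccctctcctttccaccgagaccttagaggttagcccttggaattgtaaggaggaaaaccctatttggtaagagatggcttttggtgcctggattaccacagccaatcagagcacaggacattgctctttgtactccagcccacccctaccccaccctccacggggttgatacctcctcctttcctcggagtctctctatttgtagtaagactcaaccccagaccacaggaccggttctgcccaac
The Rnf187 window holds 24 CpG pairs and 1 GC box, and that of Dusp2 26 CpG pairs, 3 GC boxes and 1 E-box. Ly6g and Plac8 have 1 and 5 CpG pairs, and no match to either motif or to the CRE TGACGTCA or the AP-1 motif TGANTCA. These 4 windows do not stand for their sides. Hmgn2, also with a higher interaction, had 25 CpG pairs, 2 GC boxes and 1 E-box. On the lower side Itgb7 had 5 CpG pairs and no GC box, and Sh2b3, Rdh14, Arrdc4 and Eif3f had no GC box either. Of the 28 genes with a lower interaction that the RefSeq promoter table holds, 23 had a GC box (82.1%), against 64.7% of 8671 tested genes and 35.9% of all 27025 promoters listed. Their median CpG count of 21.5 stood beside 21 for tested genes. An E-box was found in 17.9%, against 10.3% of tested genes and 7.24% of all, a CRE in 3.57%, 3.43% and 1.88%, and an AP-1 motif in 7.14%, 4.75% and 7.93%. A match is a description of these letters and not a site of binding.

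The 32 genes are given below in an order of related functions that was set after their values were seen and was not tested. Rnf187 encodes a RING ubiquitin ligase known as a coactivator of AP-1, and its log2 interaction was -2.40 ± 0.40 (edgeR adjusted p = 0.0029). It stood at 406, 386 and 390.0 CPM in KO DFMO, 156, 159.6 and 194 in KO ctrl, 373, 362, 357 and 360.1 in WT DFMO and 29.4, 29.6, 29.8 and 30.5 in WT ctrl. All 4 WT ctrl libraries lay far below every other library, and KO ctrl lay between WT ctrl and the DFMO groups. DFMO changed Rnf187 by 1.21 ± 0.29 in KO and by 3.60 ± 0.28 in WT on the log2 scale. Dusp2, the nuclear phosphatase PAC-1 that inactivates ERK in activated lymphocytes, stood at 111, 114 and 116 CPM in KO DFMO, 61.0, 71.6 and 96.8 in KO ctrl, 86.9, 93.2, 86.1 and 91.2 in WT DFMO and 9.52, 13.1, 15.5 and 14.9 in WT ctrl. No WT ctrl library reached a level of any other group, and the DFMO effect was 0.55 ± 0.27 in KO against 2.75 ± 0.27 in WT (interaction -2.19 ± 0.38, edgeR adjusted p = 0.0045). Ier2, an immediate early gene encoding a nuclear protein, stood at 252, 278 and 261 CPM in KO DFMO, 166, 171 and 156 in KO ctrl, 280.4, 288, 264 and 242 in WT DFMO and 61.4, 65.4, 74.7 and 75.5 in WT ctrl. Its KO ctrl libraries lay between WT ctrl and the DFMO libraries (interaction -1.27 ± 0.25). Peli1, a ubiquitin ligase that restrains T cell activation, stood at 78.3, 90.04 and 86.1 CPM in KO DFMO, 109.6, 111 and 117 in KO ctrl, 83.2, 96.2, 85.8 and 87.5 in WT DFMO and 40.2, 38.8, 42.5 and 49.5 in WT ctrl. DFMO changed it in opposite directions in the animals, by -0.48, -0.29 and -0.44 in the KO animals and 1.04, 1.30, 1.00 and 0.81 in the WT animals (interaction -1.45 ± 0.27), although its KO effect was not called.

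Ppp4c, the catalytic subunit of protein phosphatase 4, stood at 223, 220.2 and 252 CPM in KO DFMO, 113, 131 and 127 in KO ctrl, 225, 217, 223 and 233 in WT DFMO and 45.4, 42.0, 53.4 and 65.6 in WT ctrl (interaction -1.22 ± 0.23). DFMO raised it in both genotypes, by 0.90 ± 0.17 in KO and 2.12 ± 0.15 in WT. Rala, a small GTPase of the Ras family, stood at 63.5, 61.8 and 66.7 CPM in KO DFMO, 106, 96.3 and 101 in KO ctrl, 66.3, 67.2, 63.5 and 66.5 in WT DFMO and 45.4, 51.7, 48.3 and 59.1 in WT ctrl (interaction -1.02 ± 0.20). DFMO libraries of both genotypes were level with each other, KO ctrl stood above them and WT ctrl below, so that DFMO lowered Rala in KO (-0.66 ± 0.15) and raised it in WT (0.37 ± 0.13). Sipa1, which switches off the GTPase Rap1, showed the same arrangement, at 118, 124 and 109.5 CPM in KO DFMO, 156, 173 and 183 in KO ctrl, 110.3, 120.2, 105 and 109 in WT DFMO and 60.3, 75.6, 75.7 and 84.8 in WT ctrl (interaction -1.14 ± 0.26). Adipor1, a receptor for adiponectin, did so too, at 230.3, 253 and 226 CPM in KO DFMO, 299, 281 and 324 in KO ctrl, 223, 206, 217 and 243 in WT DFMO and 122, 142, 142 and 165 in WT ctrl (interaction -0.99 ± 0.17). Its DFMO effect was -0.35 ± 0.13 in KO and 0.64 ± 0.11 in WT, both called. Adcy3, an adenylyl cyclase that makes cyclic AMP, stood at 26.1, 30.4 and 28 CPM in KO DFMO, 34.8, 33.8 and 34.3 in KO ctrl, 29.7, 37.2, 30.2 and 21.3 in WT DFMO and 12.5, 18.5, 9.57 and 14.3 in WT ctrl (interaction -1.40 ± 0.26). Its gene overlaps Cenpo on the opposite strand.

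Sh2b3 encodes the adaptor LNK, which restrains signalling through JAK kinases, and stood at 76.3, 71.7 and 72.8 CPM in KO DFMO, 46.8, 46.5 and 65.5 in KO ctrl, 72.4, 78.8, 76.2 and 59.5 in WT DFMO and 13.6, 24.1, 20.6 and 28.6 in WT ctrl (interaction -1.26 ± 0.29). WT ctrl libraries were below all others. Cyth2, an exchange factor for ARF GTPases, stood at 55.6, 53.9 and 65.5 CPM in KO DFMO, 45.9, 40.6 and 48.1 in KO ctrl, 65.5, 66.9, 67.9 and 70.0 in WT DFMO and 14.1, 24.1, 26.6 and 22.9 in WT ctrl (interaction -1.25 ± 0.24). Kctd13, an adaptor of CUL3 ubiquitin ligases, stood at 36.5, 41.8 and 37.9 CPM in KO DFMO, 32.1, 21.1 and 32.5 in KO ctrl, 59.9, 42.5, 49.4 and 47.4 in WT DFMO and 10.8, 6.995, 9.15 and 8.44 in WT ctrl. Its DFMO effect was 0.43 ± 0.23 in KO and 2.48 ± 0.22 in WT (interaction -2.06 ± 0.32, edgeR adjusted p = 0.00177), and it overlaps Asphd1 on the opposite strand. Arrdc4, an arrestin-domain protein related to the glucose uptake regulator TXNIP, had the lowest estimate (-3.13 ± 0.55) on few reads, at 4.95, 10.1 and 5.05 CPM in KO DFMO, 10.1, 11.1 and 9.32 in KO ctrl, 11.1, 12.3, 12.5 and 12.1 in WT DFMO and 1.95, 1.58, 3.19 and 1.51 in WT ctrl. In WT ctrl it held 1.51 to 3.19 CPM, so the size of this difference is imprecise (95% interval -4.25 to -2.002). Itgb7, the integrin chain of gut-homing lymphocytes, was the exception to the common pattern, at 159, 152 and 156 CPM in KO DFMO, 373, 358 and 368 in KO ctrl, 163, 193, 189 and 145 in WT DFMO and 154, 163, 212 and 206 in WT ctrl. It was high in KO ctrl alone, and DFMO lowered it in KO (-1.24 ± 0.19) and left no called change in WT (-0.09 ± 0.16, interaction -1.15 ± 0.25).

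**Figure D3:**
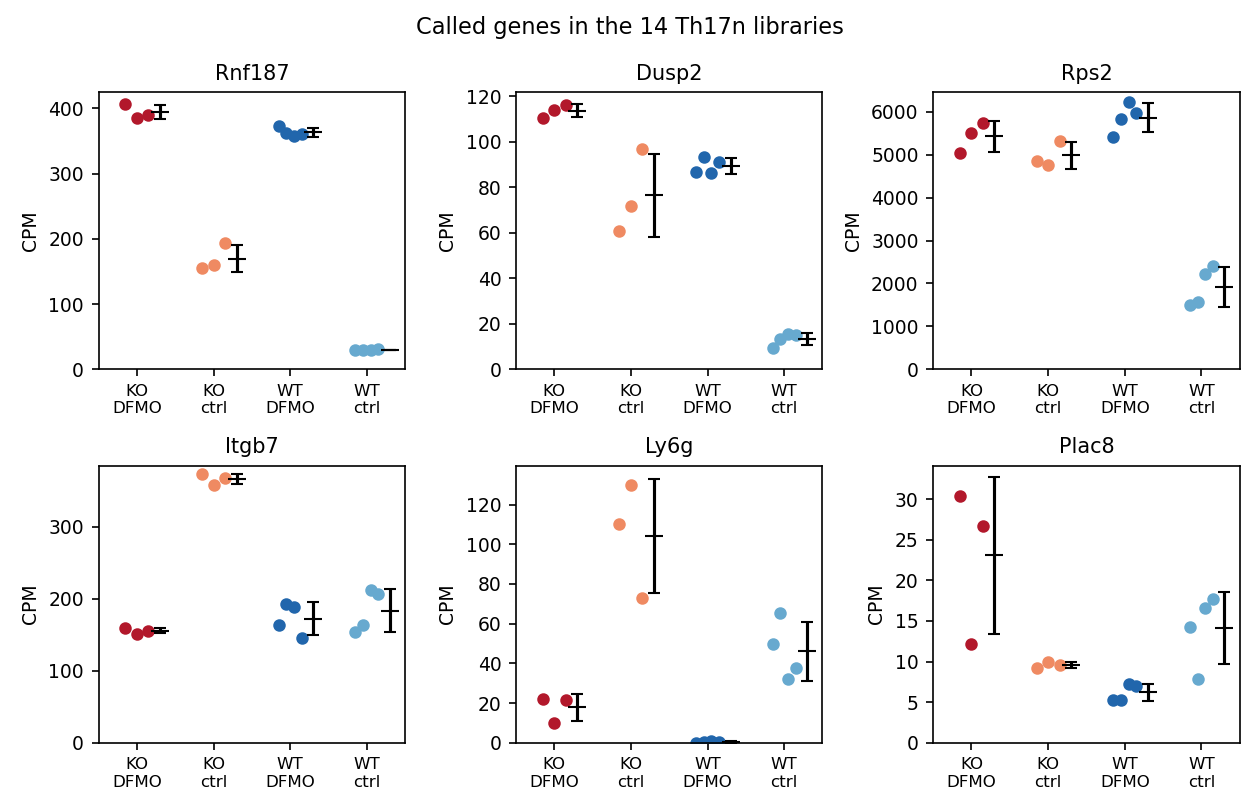
CPM of 6 called genes in the 14 Th17n libraries. Points are libraries of KO DFMO, KO ctrl, WT DFMO and WT ctrl cultures, and black marks are mean ± SD (n = 3 for KO and 4 for WT). Rnf187, Dusp2 and Rps2 are low in WT ctrl, Itgb7 is high in KO ctrl, Ly6g is near 0 in WT DFMO, and Plac8 has its highest mean in KO DFMO.

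Rps2, Eif3f, Lsm4, Tsen34 and Cactin encode proteins of the ribosome, of translation initiation or of RNA processing. Of 30 ribosome biogenesis genes edgeR called 0 (background 0.328%), and 1 had an unadjusted p under 0.05 (background 6.85%). That list holds none of the genes just named, so it does not describe their classes. Rps2 encodes a protein of the small ribosomal subunit and stood at 5032, 5516 and 5740.0 CPM in KO DFMO, 4865, 4754 and 5329 in KO ctrl, 5416, 5831, 6223 and 5977 in WT DFMO and 1488, 1563, 2218 and 2417 in WT ctrl (interaction -1.49 ± 0.27, edgeR adjusted p = 0.00551). WT ctrl libraries were below all others, and DFMO changed it by 0.12 ± 0.20 in KO and 1.61 ± 0.18 in WT. Ribosomal protein genes have many near-identical pseudogene copies and Rps2 overlaps Snhg9 and 2 snoRNA genes, so the share of reads given to Rps2 is uncertain. Eif3f, a subunit of translation initiation factor eIF3, stood at 699, 816 and 784 CPM in KO DFMO, 707, 721 and 866 in KO ctrl, 717, 739, 779 and 825 in WT DFMO and 258, 297, 391 and 434 in WT ctrl (interaction -1.15 ± 0.24). Lsm4, a member of the Sm-like ring that binds U6 RNA and decaying messages, stood at 129, 133 and 136 CPM in KO DFMO, 111, 107 and 111 in KO ctrl, 126, 143, 141 and 132 in WT DFMO and 33.1, 39.9, 54.2 and 49.1 in WT ctrl (interaction -1.34 ± 0.20, edgeR adjusted p = 0.00177). For both genes DFMO raised the level in WT and gave no called change in KO, and WT ctrl lay below the other 3 groups. Tsen34, a subunit of the tRNA splicing endonuclease, stood at 48.6, 45.5 and 46.5 CPM in KO DFMO, 22.9, 26.3 and 23.9 in KO ctrl, 49.0, 46.7, 45.0 and 49.0 in WT DFMO and 11.03, 8.57, 13.8 and 8.66 in WT ctrl (interaction -1.22 ± 0.26). Cactin, a spliceosome-associated protein, stood at 66.0, 74.2 and 68.2 CPM in KO DFMO, 32.5, 22.7 and 24.4 in KO ctrl, 72.6, 71.8, 64.2 and 56.5 in WT DFMO and 8.65, 9.25, 7.87 and 9.09 in WT ctrl (interaction -1.52 ± 0.32). In these 2 genes the KO ctrl libraries lay between WT ctrl and the DFMO groups, and DFMO raised both genes in both genotypes. Zfp593, a zinc finger protein, stood at 41.9, 39.6 and 46.3 CPM in KO DFMO, 37.1, 36.2 and 34.8 in KO ctrl, 47.2, 47.1, 55.1 and 46.3 in WT DFMO and 17.5, 16.5, 21.3 and 17.1 in WT ctrl (interaction -1.19 ± 0.22). Tsen34 overlaps Mboat7, and Zfp593 overlaps E130218I03Rik, on the opposite strand.

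Plbd2, a phospholipase-like protein of the lysosome, had the smallest adjusted p (0.000607 by edgeR) and stood at 115, 108 and 115 CPM in KO DFMO, 108, 132 and 122 in KO ctrl, 127, 139.6, 125 and 117 in WT DFMO and 29.0, 36.8, 51.7 and 43.1 in WT ctrl. The animals' own log2 effects of DFMO were 0.09, -0.30 and -0.09 in the KO animals and 2.11, 1.91, 1.26 and 1.43 in the WT animals (interaction -1.77 ± 0.24). KO cells showed next to no response, and every WT animal rose; the gene overlaps Sds on the opposite strand. Micu2, a gatekeeper of the mitochondrial calcium uniporter, stood at 84.4, 85.8 and 71.4 CPM in KO DFMO, 78.9, 69.2 and 93.0 in KO ctrl, 83.8, 72.7, 80.4 and 70.5 in WT DFMO and 24.9, 20.5, 30.4 and 24.2 in WT ctrl (interaction -1.62 ± 0.30). Stx6, a SNARE of the trans-Golgi network, stood at 101, 101 and 101 CPM in KO DFMO, 94.9, 82.4 and 95.8 in KO ctrl, 111, 92.0, 102 and 99.3 in WT DFMO and 40.4, 32.9, 48.1 and 45.2 in WT ctrl (interaction -1.12 ± 0.25). In both, every WT ctrl library lay below the other 3 groups, and the KO effect of DFMO was not called. Tmem214, a protein of the endoplasmic reticulum membrane, stood at 117, 101 and 104 CPM in KO DFMO, 135, 132 and 157 in KO ctrl, 93.8, 116, 106 and 106 in WT DFMO and 67.3, 76.0, 86.2 and 87.4 in WT ctrl (interaction -0.81 ± 0.16). DFMO lowered it in KO (-0.40 ± 0.12) and raised it in WT (0.41 ± 0.10). Tbc1d10a, a GTPase-activating protein for Rab proteins, stood at 52.2, 59.6 and 56.6 CPM in KO DFMO, 75.7, 72.0 and 65.3 in KO ctrl, 50.1, 66.1, 58.0 and 54.4 in WT DFMO and 33.1, 42.4, 38.9 and 40.7 in WT ctrl (interaction -0.89 ± 0.20). Desi1, which removes SUMO from proteins, stood at 99.7, 117 and 118 CPM in KO DFMO, 106, 102 and 145 in KO ctrl, 107, 112, 134 and 109.8 in WT DFMO and 41.3, 42.2, 66.4 and 59.5 in WT ctrl (interaction -1.23 ± 0.25), and overlaps Xrcc6 on the opposite strand.

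Pithd1, a protein with a PITH domain, stood at 73.6, 77.7 and 84.0 CPM in KO DFMO, 40.8, 36.6 and 42.8 in KO ctrl, 81.6, 71.3, 84.5 and 85.3 in WT DFMO and 17.5, 11.3, 12.8 and 18.8 in WT ctrl (interaction -1.45 ± 0.26). DFMO raised it in KO (0.96 ± 0.19) and more in WT (2.41 ± 0.18). Tesc, the calcium-binding protein tescalcin, stood at 20.3, 23.0 and 24.6 CPM in KO DFMO, 21.1, 22.3 and 23.4 in KO ctrl, 26.0, 34.1, 28.1 and 33.6 in WT DFMO and 10.8, 11.7, 13.6 and 12.6 in WT ctrl (interaction -1.30 ± 0.30). Lrrfip2, an interactor of flightless I, stood at 28.1, 37.4 and 32.8 CPM in KO DFMO, 30.7, 22.7 and 33.0 in KO ctrl, 34.5, 33.0, 31.7 and 34.5 in WT DFMO and 9.73, 9.25, 13.6 and 13.4 in WT ctrl (interaction -1.36 ± 0.28). KO libraries of both genes overlapped between DFMO and ctrl. Ccdc85b, a coiled-coil protein that overlaps Fosl1 on the opposite strand, stood at 43.7, 47.2 and 47.4 CPM in KO DFMO, 39.9, 45.8 and 52.7 in KO ctrl, 49.3, 47.1, 55.7 and 50.05 in WT DFMO and 16.0, 17.8, 26.2 and 26.2 in WT ctrl (interaction -1.24 ± 0.25). Fam174a stood at 20.9, 25.5 and 28.6 CPM in KO DFMO, 16.5, 20.3 and 28.7 in KO ctrl, 27.03, 25.8, 29.4 and 28.5 in WT DFMO and 6.92, 9.25, 10.43 and 8.01 in WT ctrl (interaction -1.51 ± 0.32). Rdh14, a retinol dehydrogenase, stood at 16.0, 16.1 and 12.2 CPM in KO DFMO, 18.3, 18.3 and 15.1 in KO ctrl, 14.8, 19.8, 15.6 and 16.4 in WT DFMO and 6.49, 9.03, 7.87 and 8.87 in WT ctrl (interaction -1.26 ± 0.29). In all 6 genes each WT ctrl library lay below every other library.

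How far these calls rested on single libraries differed by gene. Of the 32 genes, 16 were called in all 14 fits that left out 1 Th17n library: Plbd2, Lsm4, Kctd13, Rnf187, Adipor1, Dusp2, Arrdc4, Rps2, Pithd1, Zfp593, Micu2, Adcy3, Ppp4c, Peli1, Rala and Ier2. The call of Cyth2 was lost without ctrl KO replicate 3 (-1.18), and that of Tmem214 without ctrl KO replicate 3 (-0.72) or DFMO KO replicate 2 (-0.76). Desi1 was lost without ctrl KO replicate 3 (-1.04) or DFMO KO replicate 1 (-1.16). Ccdc85b and Fam174a were lost without the same 3 libraries, ctrl KO replicate 3 (-1.12 and -1.23), DFMO KO replicate 1 (-1.20 and -1.39) and ctrl WT replicate 1 (-1.13 and -1.43). Cactin and Lrrfip2 were lost in 6 fits each, without DFMO KO replicates 1 and 3, ctrl KO replicates 1 and 3 and ctrl WT replicate 1, and then ctrl WT replicate 3 for Cactin and replicate 2 for Lrrfip2 (-1.58 to -1.38 and -1.35 to -1.23). Eif3f was lost without DFMO KO replicates 1 or 3, ctrl KO replicate 3, DFMO WT replicate 4, or ctrl WT replicates 1 or 2 (-1.15 to -1.04). Tsen34 was lost without replicates 2 or 3 of DFMO KO or of ctrl KO, or ctrl WT replicates 2 or 4 (-1.24 to -1.14). The rest held in few fits. Itgb7 held without DFMO WT replicates 1 or 4, ctrl KO replicate 2, or ctrl WT replicates 3 or 4, and Tbc1d10a without DFMO WT replicates 1 or 4 or ctrl WT replicates 2 or 4. In the other fits their values were -1.16 to -1.08 and -0.95 to -0.82. Stx6 held without DFMO WT replicate 2 or ctrl WT replicates 3 or 4 (otherwise -1.20 to -1.03), Sh2b3 without replicate 4 of DFMO WT or ctrl WT (otherwise -1.36 to -1.06), Tesc without DFMO WT replicate 1 (otherwise -1.36 to -1.23), Sipa1 without ctrl WT replicate 4 (otherwise -1.20 to -1.06) and Rdh14 in no fit (-1.36 to -1.13).

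The 4 genes with a higher interaction had different patterns. Ly6g, a surface protein best known as a marker of neutrophils, stood at 21.8, 10.1 and 21.7 CPM in KO DFMO, 110.0, 129.7 and 72.8 in KO ctrl, 0, 0.44, 0.78 and 0.269 in WT DFMO and 49.5, 65.4, 31.9 and 37.6 in WT ctrl. DFMO libraries were below ctrl libraries in both genotypes, and WT DFMO libraries held 6 counts together, against 843 in WT ctrl. Pooled over libraries, Ly6g under DFMO was 18.5% of its ctrl level in KO (241 counts under DFMO and 855 in ctrl; exact 95% interval 15.9% to 21.3%) and 0.824% in WT (0.302% to 1.80%), intervals that cover counting error only. The fitted log2 interaction of 4.29 ± 0.63 (edgeR adjusted p = 0.00221) depends on how near-zero counts are handled. Of 11 neutrophil markers, 10 stayed under 1 CPM in all 14 libraries and S100a9 and Elane were at 0. The 11 summed to 6.43 to 13.7 CPM in KO DFMO, 11.5 to 13.1 in KO ctrl, 9.47 to 15.1 in WT DFMO and 6.28 to 21.4 in WT ctrl, ranges that overlap. Ly6g belongs to a family of close paralogs, so its share of reads is uncertain.

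Plac8, a cysteine-rich protein of lymphoid and myeloid cells, stood at 30.4, 12.1 and 26.7 CPM in KO DFMO, 9.17, 9.95 and 9.58 in KO ctrl, 5.30, 5.29, 7.28 and 6.997 in WT DFMO and 14.3, 7.90, 16.6 and 17.8 in WT ctrl. DFMO raised it in KO (1.27 ± 0.32) and lowered it in WT (-1.19 ± 0.28), and the interaction was 2.46 ± 0.42 (edgeR adjusted p = 0.00434). KO DFMO replicate 2 was the lowest of its group and overlapped WT ctrl. The calls of Ly6g (3.92 to 4.83) and Plac8 (2.22 to 2.78) held in all 14 fits without 1 Th17n library, and both genes were called with the block. Olfr1033, of the olfactory receptor family, stood at 135, 131 and 140.0 CPM in KO DFMO, 167, 183 and 147 in KO ctrl, 50.4, 85.4, 58.5 and 70.2 in WT DFMO and 130.0, 186, 132 and 186 in WT ctrl. Its deposited TPM in KO DFMO, 748.5 to 803.9, were far above its CPM, although its listed transcripts have a median length of 3625 bases. Which transcript these reads come from is therefore uncertain. In CPM, WT DFMO libraries of Olfr1033 were below all others (interaction 0.97 ± 0.20). Its call was lost without DFMO KO replicate 3 (0.95), DFMO WT replicate 3 (0.91), ctrl KO replicates 1 or 3 (0.97 and 0.89) or ctrl WT replicate 2 (0.88). Hmgn2, a nucleosome-binding high mobility group protein, stood at 413, 357 and 389 CPM in KO DFMO, 88.5, 97.1 and 88.0 in KO ctrl, 347, 336, 355 and 349 in WT DFMO and 122, 107, 111 and 118 in WT ctrl. DFMO raised it in KO (2.08 ± 0.08) and WT (1.60 ± 0.07), and the interaction was 0.49 ± 0.11. Among fits without 1 Th17n library, its call held without replicate 2 of DFMO KO, ctrl KO or ctrl WT, or ctrl WT replicate 3 (otherwise 0.44 to 0.49). Hmgn2 was called with Th17n libraries only (adjusted p = 0.0288 by edgeR). It was not called without a filter (0.105 by edgeR) or by limma on log2(TPM + 1) (0.146).

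The same contrast was then read in iTreg cells of the same animals. There 27 genes were called by edgeR (0.246%), 3 higher (0.0273%) and 24 lower, and 1080 had an unadjusted p under 0.05 (9.83%). In all, 14 genes were called in both cultures, 38.9% of the 36 in Th17n and 51.9% of the 27 in iTreg. All 32 genes with a lower interaction in Th17n had a negative one in iTreg (median -1.13), 31 with an unadjusted p under 0.05 (background for lower, 5.24%) and 14 called (background 0.218%). WT ctrl libraries lay below all other iTreg libraries in 25 of the 32, against 2.36% of tested genes. Rnf187 stood at 505, 447 and 486 CPM in KO DFMO, 159.7, 236 and 158 in KO ctrl, 416, 408, 483 and 91.8 in WT DFMO and 30.3, 31.4, 29.7 and 16.0 in WT ctrl in iTreg (interaction -2.30 ± 0.40). Replicate 4 of WT DFMO lay apart from its 3 companions. Without that library 99 genes were called in iTreg, 90 of them lower, among 11026 tested. Of the 32, 27 were then called lower, with a median of -1.30. Because that library was singled out by its level of these same genes, the rise from 14 adds no support. Leaving out any other single library gave 15 to 66 calls in iTreg.

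**Figure D4:**
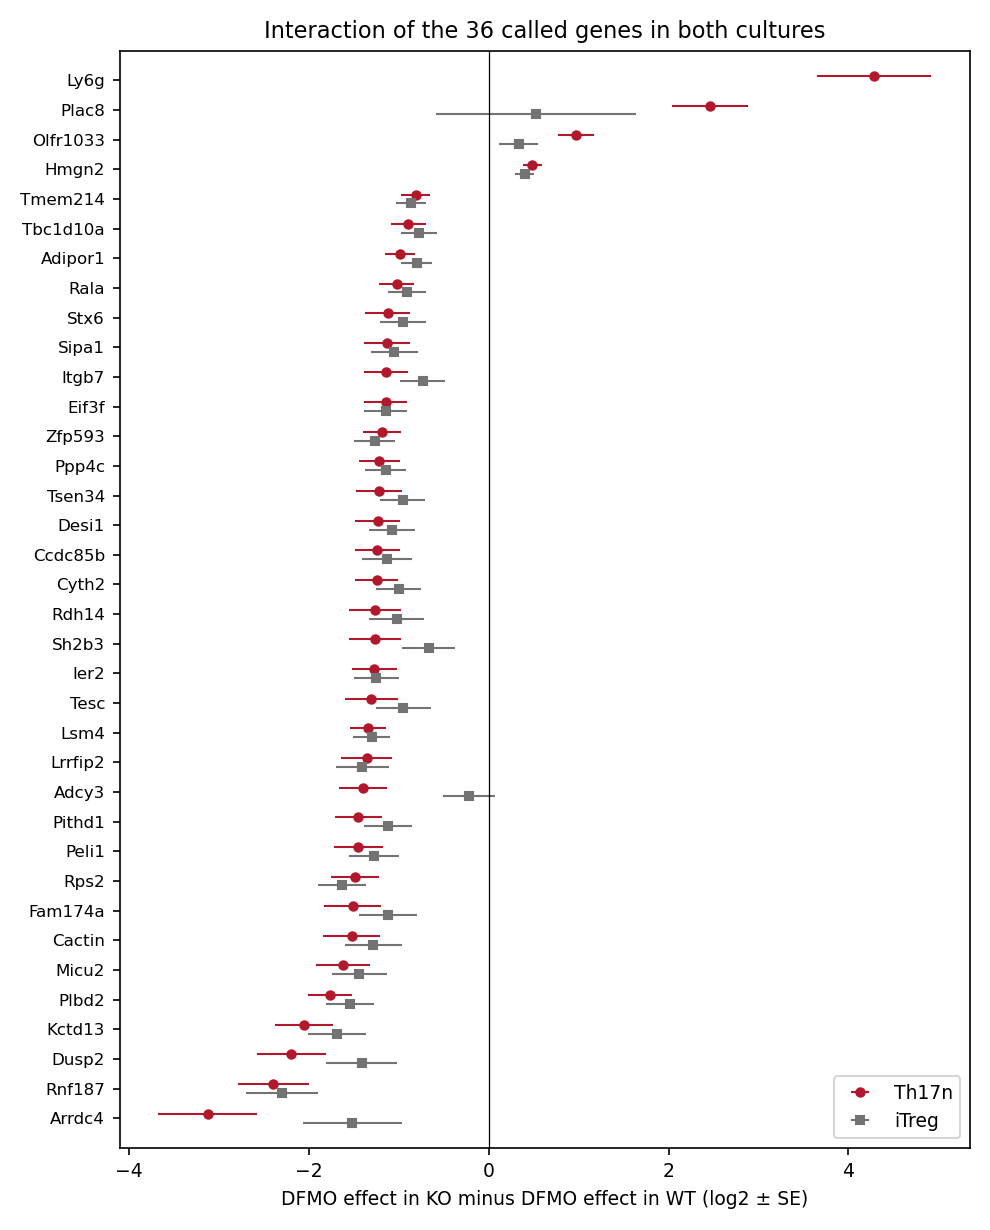
Log2 interaction ± SE of the 36 called genes in Th17n (red circles) and iTreg (grey squares). All 32 lower genes lie below 0 in both cultures, with Adcy3 nearest to 0 in iTreg. Ly6g has no iTreg point, since 1 of 14 iTreg libraries held any count of it.

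No gene was called different between the Th17n and iTreg interactions by edgeR (0 of 10985), 430 had an unadjusted p under 0.05 (3.91%), and with DESeq2's size factors or with the animal block the count was also 0. Without a filter on low counts 11 were called. Among the 36, this difference had an unadjusted p under 0.05 for Adcy3, Arrdc4 and Olfr1033, none past the adjustment. Adcy3 stood at 33.3, 27.1 and 31.96 CPM in KO DFMO, 16.3, 16.9 and 16.4 in KO ctrl, 21.7, 17.5, 25.3 and 18.1 in WT DFMO and 7.02, 12.4, 8.68 and 9.76 in WT ctrl in iTreg, where its interaction was -0.22 ± 0.29, against -1.40 ± 0.26 in Th17n. In iTreg the KO DFMO libraries were the highest and the WT ctrl libraries the lowest, with KO ctrl and WT DFMO between them. Ly6g was at 0 in 13 of 14 iTreg libraries and Plac8 reached at most 3.16 CPM there, so the iTreg data do not bear on either. Hmgn2 (0.40 ± 0.10) and Olfr1033 (0.33 ± 0.22) had the same sign in iTreg as in Th17n and were not called there. Single genes passed when 1 library was left out: Inhba, the activin subunit gene, without iTreg DFMO KO replicate 2 (-7.67), Haao, an enzyme of tryptophan catabolism, without Th17n DFMO WT replicate 1 (-3.25), and Sgk1, a kinase that promotes Th17 cells, without iTreg ctrl KO replicate 2 (-1.90). These 3 were named after their values were seen, and with all libraries none passed (adjusted p = 0.148 for Inhba by edgeR). In the Th17n interaction itself Inhba (-1.12) and Haao (-1.95) were called with the animal block (adjusted p = 0.041 and 0.0423) and not without it (0.0869 and 0.0785 by edgeR).

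Genes that define the polyamine pathway and the lineage were not called in the interaction. Odc1 stood at 135, 157 and 188 CPM in KO DFMO, 113, 111 and 135 in KO ctrl, 147, 115, 153 and 201 in WT DFMO and 110.3, 80.3, 98.1 and 104 in WT ctrl. DFMO raised it in KO (0.41 ± 0.16) and in WT (0.65 ± 0.14), DFMO libraries of the genotypes overlapped, and the interaction was -0.24 ± 0.21 (95% interval -0.66 to 0.19). Srm, spermidine synthase, stood at 344, 384 and 424 CPM in KO DFMO, 65.6, 65.2 and 80.1 in KO ctrl, 377, 317, 441 and 427 in WT DFMO and 37.9, 33.6, 44.9 and 51.3 in WT ctrl. Its DFMO response was 2.44 ± 0.19 in KO and 3.22 ± 0.17 in WT, smaller in every KO animal, with KO ctrl above WT ctrl as in the 32 genes. The interaction of -0.78 ± 0.24 did not pass the adjustment (unadjusted p = 0.00326, adjusted p = 0.259 by edgeR). It passed in edgeR fits of Th17n libraries only (adjusted p = 0.0493), with no filter (0.00525), or with Th17n libraries only and the animal block (9.17e-05). With the block on all libraries (0.124 by edgeR), by DESeq2 (0.103), thinned to equal depth (0.310 by edgeR) or by limma on log2(TPM + 1) (0.467) it did not pass. Nor did it with a GC correction (0.0836 to 0.430 by edgeR) or in any of the 14 fits without 1 Th17n library. For Kdm6b, whose values are given above, the animals' effects were -0.31, -0.10 and -0.39 in the KO animals and 0.10, 0.35, 0.32 and 0.05 in the WT animals, without overlap. The interaction was -0.51 ± 0.27 (95% interval -1.07 to 0.05) by edgeR. By limma on log2(TPM + 1) it was -0.0056 (adjusted p = 0.999).

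Il17a, the signature Th17 cytokine, stood at 26.6, 42.8 and 34.5 CPM in KO DFMO, 58.7, 105 and 90.2 in KO ctrl, 36.8, 27.5, 45.2 and 112 in WT DFMO and 58.2, 169, 128 and 251 in WT ctrl. DFMO lowered it in KO (-1.30 ± 0.45) and in WT (-1.46 ± 0.37). The interaction was 0.15 ± 0.58 and its 95% interval, -1.04 to 1.35, holds more than 2-fold in either direction, so these libraries do not decide whether KO changes this response; its sign turned without DFMO KO replicate 2 (-0.01), DFMO WT replicate 2 (-0.08), ctrl KO replicate 1 (-0.04) or ctrl WT replicate 4 (-0.20). Il17f stood at 545, 626 and 620.1 CPM in KO DFMO, 711, 984 and 872 in KO ctrl, 259, 642, 372 and 733 in WT DFMO and 620.0, 1024, 689.5 and 1332 in WT ctrl. Its effects were -0.38, -0.65 and -0.49 in the KO animals and -1.26, -0.67, -0.89 and -0.86 in the WT animals, and the fitted interaction was 0.35 ± 0.46 (-0.58 to 1.28). Il23r, the receptor chain that sustains Th17 cells, stood at 3.83, 5.20 and 3.999 CPM in KO DFMO, 6.88, 6.76 and 9.32 in KO ctrl, 3.18, 5.07, 4.94 and 3.77 in WT DFMO and 13.0, 10.6, 10.2 and 15.2 in WT ctrl (interaction 0.68 ± 0.48, interval -0.32 to 1.67). The level under DFMO was below ctrl in every animal, and the KO effect on Il23r was not called (-0.84 ± 0.37, against -1.52 ± 0.30 in WT). Foxp3 stood at 34.4, 37.1 and 33.3 CPM in KO DFMO, 8.25, 8.36 and 3.78 in KO ctrl, 28.9, 38.8, 40.8 and 39.8 in WT DFMO and 14.7, 6.77, 10.2 and 6.92 in WT ctrl (interaction 0.52 ± 0.41, interval -0.31 to 1.35). DFMO raised Foxp3 in both genotypes, by 2.45 ± 0.31 in KO and 1.94 ± 0.22 in WT, and its gene overlaps Ppp1r3f and Ccdc22 on the opposite strand.

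**Figure D5:**
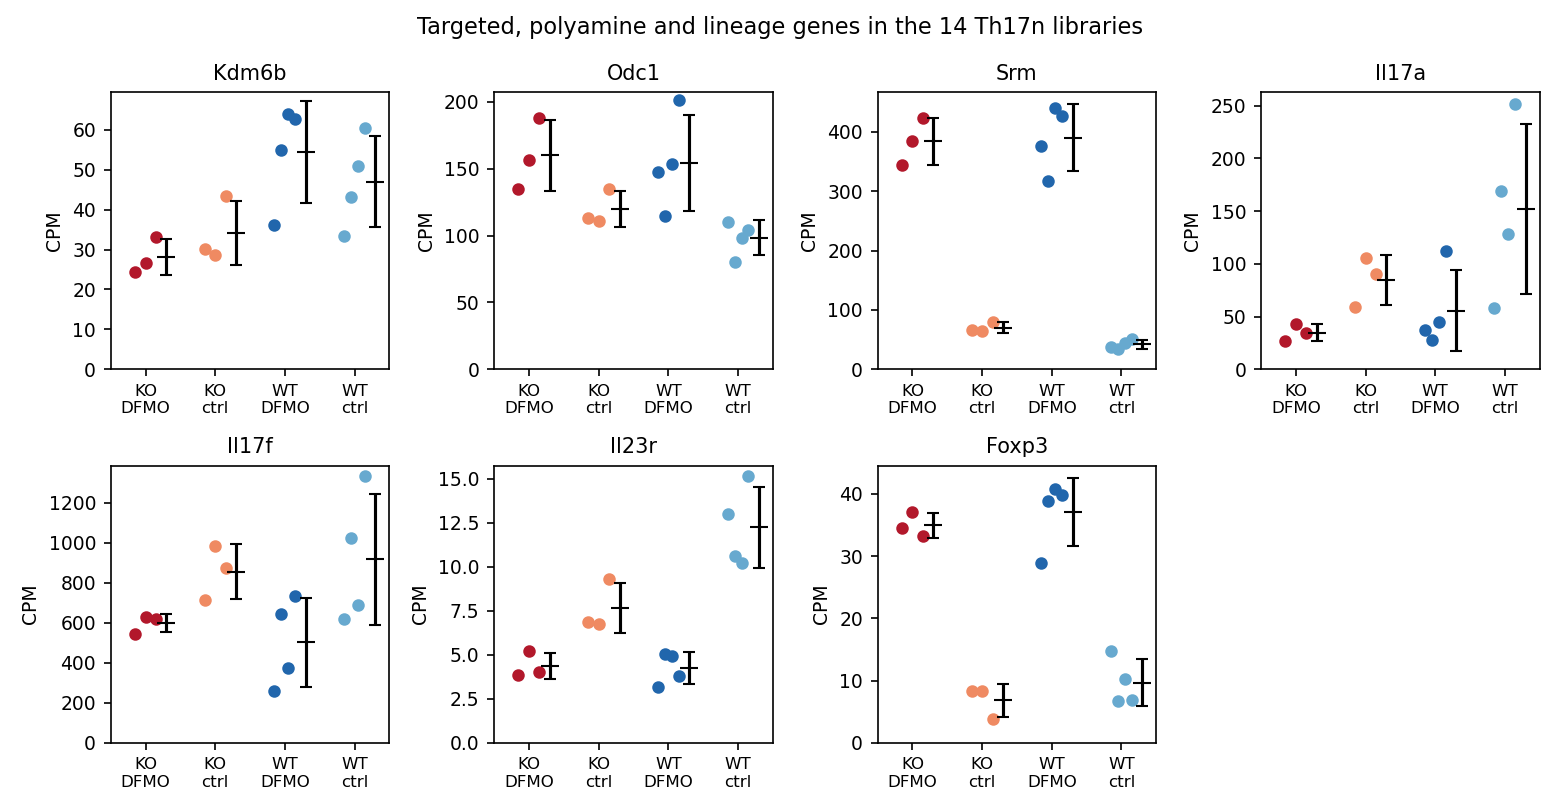
CPM of Kdm6b, of the polyamine genes Odc1 and Srm and of lineage genes in the 14 Th17n libraries, in KO DFMO, KO ctrl, WT DFMO and WT ctrl cultures (points; black marks are mean ± SD, n = 3 for KO and 4 for WT). The fitted DFMO effects have the same sign in both genotypes for all but Kdm6b.

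Gene lists were described by counts and medians, beside a median of 0.017 over all tested genes. Of all tested genes, 0.328% were called (0.0364% higher, 0.291% lower) and 6.85% had an unadjusted p under 0.05 (3.02% higher, 3.83% lower), and the counts below are read against these shares. Of 28 lists, 7 held a called gene, and each of them 1: Plac8 among 16 naive and memory T cell genes, Hmgn2 among 8 high mobility group genes and Ly6g among 9 Ly6 family genes were called higher, and Ier2 among 27 immediate early genes, Dusp2 among 14 phosphatases of MAPK feedback, Kctd13 among 20 ubiquitin ligase adaptors and Plbd2 among 22 lysosomal genes were called lower. In the other 21 lists 0 members were called. Of the 22 tested genes of the Th17 programme none was called (median 0.15), 3 had an unadjusted p under 0.05 and all 3 were higher: Ahr, the aryl hydrocarbon receptor (0.86 ± 0.36), Tmem176b, an ion channel-like membrane protein (1.02 ± 0.43), and Maf, a transcription factor of Th17 and Tfh cells (0.56 ± 0.27). Among 20 polyamine genes (median -0.03), Paox, a polyamine oxidase (0.60 ± 0.28), and Smox, spermine oxidase (-0.49 ± 0.23), came next to Srm. In 20 JmjC demethylase genes (median -0.12), Kdm5b (-0.51 ± 0.15) and Kdm4b (-0.80 ± 0.25), which act on lysines 4 and 9 of histone H3, had the smallest p-values. In 23 genes of H3K27 methylation (median 0.07) these were Cbx2, a reader of the mark (0.84 ± 0.34), and Phf1, a partner of the Polycomb methyltransferase (-0.91 ± 0.41).

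Beside the genes called above, lists of signalling and lineage genes held some members under an unadjusted p of 0.05, none of them past the adjustment. Among 16 naive and memory T cell genes 6 were higher at that p, Plac8 included, and 0 lower (background 3.02% and 3.83%). Dusp4 (-0.46 ± 0.14) and Dusp6 (-0.55 ± 0.26), phosphatases that act on MAP kinases, were lower beside Dusp2. Hmgb1 (0.40 ± 0.12) and Hmgb2 (0.38 ± 0.13), abundant DNA-bending proteins, were higher beside Hmgn2, and Hmgn5 (0.79 ± 0.32) had the same sign. In the Treg programme Icos, a costimulatory receptor (0.51 ± 0.17), and Nrp1, a coreceptor for semaphorins (-1.18 ± 0.46), went in opposite directions. In the Th1 programme Ccl5, a chemokine on few reads (2.61 ± 0.73), and Ifngr1, a chain of the interferon gamma receptor (0.56 ± 0.16), were higher. In the TGF-beta response Tgfb3, a ligand (1.07 ± 0.37), was higher, and Tgfbr2, its receptor chain (-0.63 ± 0.26), and Itgav, an integrin that activates the latent ligand (-0.75 ± 0.32), were lower. Tnfsf11, which encodes the cytokine RANKL (-2.86 ± 0.92), and Fbl, the snoRNA-guided methyltransferase fibrillarin (-1.03 ± 0.30), were lower.

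All 32 DNA replication genes had a positive interaction, with a median of 0.19 (0.14 to 0.25 over the alternatives) and 0 called. Their animals' effects were higher in KO without overlap for 8 of 32, against 6% of all tested genes. Fen1, a flap endonuclease, stood at 255, 222 and 227 CPM in KO DFMO, 69.7, 65.2 and 65.8 in KO ctrl, 216, 234, 183 and 171 in WT DFMO and 88.7, 75.8, 70.8 and 64.9 in WT ctrl (0.39 ± 0.15), and Pcna, the sliding clamp, at 299.6, 309.9 and 365 CPM in KO DFMO, 142, 135 and 148 in KO ctrl, 304, 299, 329 and 345 in WT DFMO and 179.5, 154, 198 and 207 in WT ctrl (0.41 ± 0.16). DFMO raised both in KO and in WT, and KO ctrl was the lowest group for Pcna. Both stayed far from the threshold (adjusted p = 0.463 and 0.53 by edgeR). The 13 genes of the mitochondrial genome were positive too (median 0.55, and 0.35 to 0.77 over the alternatives), again with 0 called and 8 without overlap. The first of them, mt-Nd4l, a subunit of respiratory complex I, stood at 74.7, 68.5 and 146 CPM in KO DFMO, 0, 0 and 17.1 in KO ctrl, 77.7, 120.2, 149 and 211 in WT DFMO and 36.5, 45.4, 29.4 and 82.7 in WT ctrl (2.18 ± 0.76). It was called without ctrl KO replicate 3 (9.98), the only KO ctrl library with any count, so that value has no firm size. Mitochondrial transcripts made up 0.794% to 1.27% of counts in KO DFMO, 0.569% to 0.942% in KO ctrl, 0.752% to 1.70% in WT DFMO and 0.682% to 1.43% in WT ctrl, ranges that overlap.

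With the animal block, the lymphocyte surface genes Slamf6 and Ly6c1 from the lists were called, which did not pass without it. Slamf6, a receptor of naive, memory and follicular helper T cells, stood at 41.9, 22.3 and 37.3 CPM in KO DFMO, 6.42, 4.78 and 6.80 in KO ctrl, 6.36, 17.6, 13.3 and 11.3 in WT DFMO and 6.27, 6.77, 8.51 and 7.57 in WT ctrl. KO DFMO was above all other groups (interaction 1.72 ± 0.43, adjusted p = 0.0919 by edgeR, and 0.0251 with the block), and the call also appeared by DESeq2, with Th17n libraries only (0.0495), and without DFMO WT replicate 2 (1.97) or DFMO KO replicate 2 (1.96). Ly6c1, a close paralog of Ly6g whose reads may be shared with its relatives, stood at 17.1, 6.43 and 19.4 CPM in KO DFMO, 66.0, 80.8 and 59.7 in KO ctrl, 2.12, 2.202, 4.42 and 4.58 in WT DFMO and 80.5, 52.8, 77.4 and 57.6 in WT ctrl (interaction 2.09 ± 0.53, adjusted p = 0.11 by edgeR and 0.034 with the block). It was also called without DFMO KO replicate 2 (2.44). Near the threshold on the other side was Nfil3, a transcription factor that restrains Th17 differentiation, at 81.2, 71.2 and 75.6 CPM in KO DFMO, 157, 139 and 156 in KO ctrl, 71.0, 62.1, 73.9 and 78.6 in WT DFMO and 65.3, 74.7, 74.0 and 112 in WT ctrl (interaction -0.79 ± 0.21, adjusted p = 0.117). It was called by DESeq2 and without ctrl WT replicate 4 (-0.99).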

How the data were processed

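RNA was measured in 28 libraries of sorted live cells, of which the 14 Th17n libraries carry the contrast and the 14 iTreg libraries serve as comparison. The authors deposited estimated counts and TPM per gene; kallisto and the GRCm38 build are named in the submitters' processing notes, and the kallisto version is not given in the sources used here. Per the deposited tables, 67.2% of the estimated counts were whole within 0.001. These were rounded and tested with edgeR 4.0.16 in R 4.3.3: TMM scaling, the filter filterByExpr, and a quasi-likelihood fit of all 28 libraries with 1 mean for each group, so that all groups share an estimate of the spread (20 residual degrees of freedom). A gene was called at a Benjamini-Hochberg adjusted p under 0.05 over all 10985 genes tested. CPM are estimated counts scaled by TMM library size. Intervals are 95%. Replicates were taken as separate animals from the numbers in the labels, and cultures of 1 animal may share variation that p-values of the unblocked fit do not use.

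DFMO and ctrl cultures with the same number in their labels were read as pairs from 1 animal. Their deviations from the group means correlated at 0.11, 0.0497 and 0.115 for the KO animals and at 0.209, 0.137, 0.145 and 0.242 for the WT animals. For other pairs the correlations were -0.217 to 0.0221. Alternatives were the animal as a block, DESeq2 1.42.0, limma 3.58.1 on log2(TPM + 1) or log2(TPM + 0.1) of the deposited TPM, other scaling, filters, thinning to equal depth, Th17n libraries only, each library left out and, chosen after seeing the data, 3 corrections for GC content. Depth was 2226914 to 4759290 counts per Th17n library. Of the 20891 genes, 20837 matched GENCODE M21 by symbol; promoter sequences came from RefSeq. Named genes are every called gene with an approved symbol, a fixed set of genes (Kdm6b, Odc1, Srm, Il17a, Il17f, Il23r and Foxp3 among them) and up to 4 genes of each list with the smallest p. Some of these are not reported here. The members and lists were chosen with earlier results of these data known.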

Additional observations from a re-analysis of the deposited data

Results flagged for a closer look

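Each of the 36 called genes has a DFMO effect that differed between KO and WT by the test of the interaction itself (edgeR, adjusted over 10985 genes). On the log2 scale, as the effect in KO minus that in WT, the genes described first stood at -2.40 for Rnf187, -2.19 for Dusp2, -1.27 for Ier2, -1.45 for Peli1, -1.22 for Ppp4c, -1.02 for Rala, -1.14 for Sipa1, -0.99 for Adipor1, -1.40 for Adcy3, -1.26 for Sh2b3, -1.25 for Cyth2, -2.06 for Kctd13, -3.13 for Arrdc4 and -1.15 for Itgb7. The next described stood at -1.49 for Rps2, -1.15 for Eif3f, -1.34 for Lsm4, -1.22 for Tsen34, -1.52 for Cactin and -1.19 for Zfp593. The others on the lower side were Plbd2 at -1.77, Micu2 at -1.62, Stx6 at -1.12, Tmem214 at -0.81, Tbc1d10a at -0.89, Desi1 at -1.23, Pithd1 at -1.45, Tesc at -1.30, Lrrfip2 at -1.36, Ccdc85b at -1.24, Fam174a at -1.51 and Rdh14 at -1.26. On the higher side were Ly6g at 4.29, Plac8 at 2.46, Olfr1033 at 0.97 and Hmgn2 at 0.49.

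In 7 of 198 gene and group combinations tested among the WT groups, 1 library lay far from its 3 companions by the gap criterion for 4 samples, which chance alone meets in about 1 in 20 groups. In WT DFMO, Zfp593 stood at 55.1 CPM in replicate 3 and at 46.3 to 47.2 CPM in the others. Nrp1 stood at 50.4 CPM in replicate 2 of WT DFMO (others 35.6 to 36.9). Ccl5 reached 1.30 CPM in replicate 3 of WT DFMO (others 0.265 to 0.44). Lypd6b, of the Ly6 family, had 0.269 CPM in replicate 4 of WT DFMO and 0 in the others. Ndufb8, a subunit of complex I, had 203 CPM in replicate 1 of WT DFMO (others 222 to 226). In WT ctrl, Tnfsf11 stood at 2.93 CPM in replicate 2 (others 0.851 to 1.08) and Ddit4, a stress-induced inhibitor of mTOR, at 53.2 CPM in replicate 1 (others 93.4 to 98.5).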

How the results depend on the processing

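The count of genes called in the Th17n interaction, 36 (4 higher, 32 lower), moved with the test. It was 57 (10 higher, 47 lower) with the replicate block, 62 (57 lower) by DESeq2, 129 (11 and 118) with Th17n libraries only, 252 (58 and 194) with both that restriction and the block, 132 (22 and 110) without a filter, and 63 (14 and 49) with GC correction and block; the GC of the richest 100 bases, corrected with the block, gave 50 (7 and 43). By limma on the deposited TPM it was 6 (1 and 5) with a pseudocount of 1, all among the 36, and 0 (0 and 0) with 0.1. All 36 were among the calls of the block. Thinned to equal depth, the count was 29 (4 and 25), 28 of the 36 among them. Arrdc4, Ccdc85b, Lrrfip2, Tsen34, Fam174a, Stx6, Sh2b3 and Rdh14 were then not called (adjusted p = 0.0585 to 0.379 by edgeR). Leaving out 1 library gave 19 to 35 calls, 2 to 6 higher and 16 to 32 lower; the count was 22 without DFMO KO replicate 1, 19 without ctrl KO replicate 3 and 23 without ctrl WT replicate 1. In iTreg 27 became 146 without a filter, 57 with the block and 15 to 99 without 1 library; the difference between cultures, 0, became 11 without a filter and 0 to 1 without 1 library. The cause of these shifts was not tested.

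Over 99 named genes and 2652 alternative values, 2370 kept direction and side of the threshold, 216 lost the threshold, 61 gained it and 5 reversed, none of those 5 in a called gene. Il17a (0.15) reversed after thinning (-0.065) and ranged from -0.20 to 0.76 without 1 library. Apart from the calls gained by Slamf6 and Ly6c1, the block changed no call among these 99 genes; Inhba and Haao, which are not among them, were called with it. KO ctrl, with 2226914 to 4143568 counts per library, held the shallowest library.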
